A study of Mus musculus with 6 samples.

Results

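The PI3K, AKT, mTOR and FOXO genes described here are 8 named genes, Pik3ca, Pik3cd, Pik3r1, Akt1, Akt2, Mtor, Foxo1 and Foxo3, taken by symbol. The choice was made with earlier results of these data known. Every probe set annotated with exactly 1 gene symbol, that of one of these genes, was taken, which gave 33 probe sets of the 34945 with 1 symbol, for 8 of 18193 named genes. A probe set is the group of short oligonucleotides that together measure 1 transcript target on an Affymetrix array. RNA came from C57BL/6 megakaryocyte progenitors, isolated by sorting for c-kit, CD150 and CD41 on cells without lineage markers or Sca-1. Adult bone marrow, from mice 12 to 18 weeks old, gave 3 arrays, and fetal liver taken at E13.5 gave 3. Both groups carried the GATA1s genotype, in which the blood transcription factor GATA1 lacks its N-terminal end, and no cells with full-length GATA1 were analysed here, so the comparison is of tissue and age within 1 genotype. Samples of a group are labelled as biological replicates, with no word on how many mice each came from or how the allele was made.

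Class I phosphoinositide 3-kinases (PI3K) pair a catalytic p110 subunit with a regulatory subunit and are switched on at the membrane by cytokine and growth factor receptors, among them KIT and the thrombopoietin receptor of megakaryocyte progenitors. Their lipid product recruits the AKT kinases, which raise the activity of the mTOR kinase complex and phosphorylate FOXO transcription factors, keeping them out of the nucleus. In blood stem and progenitor cells FOXO factors are known for restraining the cell cycle and inducing stress-defence and cell-death genes, and mTOR for driving growth. These steps run through phosphorylation and localisation, which RNA arrays do not measure.

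Start regions are shown for Foxo1 and Pik3ca as examples with 1 annotated window each, from the genes called lower at their brightest probe set below. The sequences are from RefSeq on build GRCm38.p6, run from 250 bases before to 50 bases after an annotated start, and are written 5′ to 3′ on the gene's strand, with every CpG dinucleotide in capitals. Foxo1 (chr3:52268087-52268386, plus strand) had 31 CpG in 300 bases and Pik3ca (chr3:32396815-32397114, plus strand) had 20, against a median of 7 over all 32851 windows of the table, of which 26.5% held 20 or more. Of the other members, Akt2, also called lower there, had 0 to 12 in its 4 windows. Akt1, Foxo3 and Pik3r1, not called at their brightest probe set, had windows with 42, 35 and 34.
Foxo1: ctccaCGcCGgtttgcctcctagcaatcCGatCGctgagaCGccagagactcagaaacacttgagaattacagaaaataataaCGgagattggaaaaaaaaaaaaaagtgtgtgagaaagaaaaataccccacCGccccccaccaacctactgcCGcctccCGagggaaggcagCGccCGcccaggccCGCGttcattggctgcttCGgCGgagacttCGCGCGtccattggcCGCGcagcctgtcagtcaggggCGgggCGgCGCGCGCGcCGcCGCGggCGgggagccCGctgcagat
Pik3ca: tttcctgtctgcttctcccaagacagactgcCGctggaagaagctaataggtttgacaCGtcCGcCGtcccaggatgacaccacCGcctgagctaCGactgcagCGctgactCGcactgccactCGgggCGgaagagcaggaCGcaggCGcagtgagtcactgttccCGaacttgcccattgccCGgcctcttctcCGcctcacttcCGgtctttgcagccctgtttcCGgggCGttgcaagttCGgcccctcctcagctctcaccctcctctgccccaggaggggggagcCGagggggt

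Start windows of all 8 genes, 15 in number, were searched on both strands for a GATA motif and a FOXO motif, neither of which contains the other. The GATA motif, AGATAA, was in 1 window, at Pik3cd (chr4:149698659-149698958, minus strand), against 11.2% of all windows. The FOXO motif, GTAAACA, was in 1, at Akt1 (chr12:112674835-112675134, minus strand), against 3.65%. Both matches lie on the opposite strand, 14 bases after the annotated start of Pik3cd and 161 bases before that of Akt1, and stand in capitals below as read on the gene's strand. A match is a description of the letters and not of binding.
Pik3cd: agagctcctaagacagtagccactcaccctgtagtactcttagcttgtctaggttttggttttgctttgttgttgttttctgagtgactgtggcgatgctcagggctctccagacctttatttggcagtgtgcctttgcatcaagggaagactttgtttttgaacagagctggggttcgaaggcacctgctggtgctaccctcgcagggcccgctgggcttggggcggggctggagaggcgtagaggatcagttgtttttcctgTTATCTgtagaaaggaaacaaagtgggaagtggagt
Akt1: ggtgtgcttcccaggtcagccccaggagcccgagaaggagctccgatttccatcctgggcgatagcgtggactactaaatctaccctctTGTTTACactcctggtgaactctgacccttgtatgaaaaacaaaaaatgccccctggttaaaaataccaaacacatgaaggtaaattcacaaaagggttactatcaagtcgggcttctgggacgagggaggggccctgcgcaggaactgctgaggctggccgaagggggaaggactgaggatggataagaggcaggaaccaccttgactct

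Of the 8 genes, Pik3ca, Akt2 and Foxo1 were called lower in fetal liver at their brightest probe set, and no probe set of any member was called higher. Signals are MAS5 values on a linear scale, and differences are log2 fold changes, fetal liver minus bone marrow, so that a negative value is lower in fetal liver. A probe set was called when limma's adjusted p over all 27022 tested probe sets was below 0.05. Of the 33 member probe sets 29 passed the filter on low mean signal and were tested, and 9 of them, in 5 genes, were called, all lower in fetal liver. That is 31.0% of the tested members, where 26.8% of all tested probe sets were called, 11.8% higher and 15.0% lower. Pik3ca alone gave 5 of the 9. The groups did not overlap at 11 of the 29, with fetal liver below at 10 and above at 1, where 43.0% of all tested probe sets did not overlap, 22.0% lower and 21.0% higher. The median log2 fold change was -0.13 over the 29 and 0.0003 over all tested probe sets. In bulk RNA, fewer cells of a type and less RNA per cell cannot be told apart. The largest called difference of a member was 1.12 in size, and 40.4% of all called probe sets exceeded it.

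Which members were called, and in which direction, depended on how the arrays were scaled to each other, although none of the 9 called values changed sign. As deposited, every array had the same trimmed mean of 500, while the median signal was 65.9 to 74.6 in bone marrow and 52.0 to 59.1 in fetal liver. That median was taken over all 45037 non-control probe sets, those too dim to test included. Over these the median log2 fold change was 0.0055 as deposited. Centring the arrays on that median moved the median log2 fold change of tested probe sets from 0.0003 to 0.34. Under it 4 member probe sets were called, all higher, 1 probe set of Pik3cd, 2 of Akt1 and 1 of Foxo3, and none of the 9 lower calls held. Quantile normalization moved the median to 0.09 and gave 4 lower and 2 higher calls. Each difference below is as deposited, where the median tested probe set lay near 0, and so is also close to the difference from that median. The plot of the brightest probe sets under 3 scalings shows the size of this uncertainty.

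**Figure D1:**
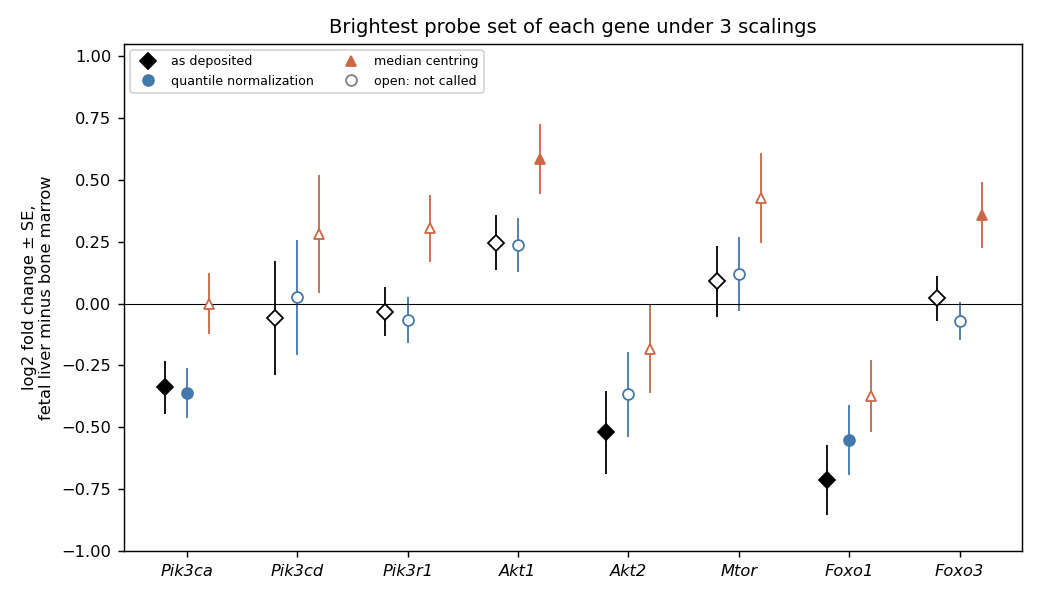
Difference in log2 signal, fetal liver minus bone marrow, with its SE, of the brightest probe set of each gene as deposited (diamonds), after quantile normalization (circles) and after median centring (triangles); filled symbols were called. Pik3ca and Foxo1 were called as deposited and after quantile normalization, Akt2 only as deposited, Akt1 and Foxo3 only after median centring, in the higher direction, and median centring raised every value by 0.34.

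The catalytic subunit gene Pik3ca, which encodes p110α, was lower in fetal liver at 5 of its 6 probe sets. The brightest, 1460326_at, had signals of 2083, 2229 and 2186 in bone marrow against 1930, 1545 and 1684 in fetal liver, so all fetal liver arrays lay below all bone marrow arrays. Its log2 fold change was -0.34 ± 0.11 (SE, limma adjusted p = 0.0409), and it fell by 20.9%. At 1423144_at the bone marrow signals were 1141, 1151 and 1093 and the fetal liver signals 968, 679 and 781, a log2 fold change of -0.49 ± 0.14 (adjusted p = 0.0281). The bone marrow arrays were close together at both, and fetal liver replicate 1 was the highest of its group at both. At 1453134_at the mean signal was 915 ± 13.4 in bone marrow against 679 ± 49.3 in fetal liver (SD over 3 arrays a side), a lower log2 fold change of -0.43 ± 0.12. The dimmer 1429434_at and 1429435_x_at fell by 0.69 and 0.66 on the log2 scale. The dimmest, 1440054_at, was at -0.43 and was not called (adjusted p = 0.397, 95% interval -1.19 to 0.34). The 6 probe sets are annotated with 3 sequence records, 3 of them with the same record, so their targets may overlap. Target sequences were not used here. No other probe set of Pik3ca was called different from the brightest in its tissue difference (adjusted p = 0.448 to 0.935), which does not show agreement. The tissue difference of 1429434_at was apart from that of the brightest by -0.35 (95% interval -0.80 to 0.09). Under median centring the brightest was at -0.0006. The calls at the 5 probe sets were lost without bone marrow replicate 1, 2 or 3 or fetal liver replicate 2 or 3. At the brightest the adjusted p was then 0.0673, 0.117, 0.133, 0.0932 and 0.116 in that order.

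**Figure D2:**
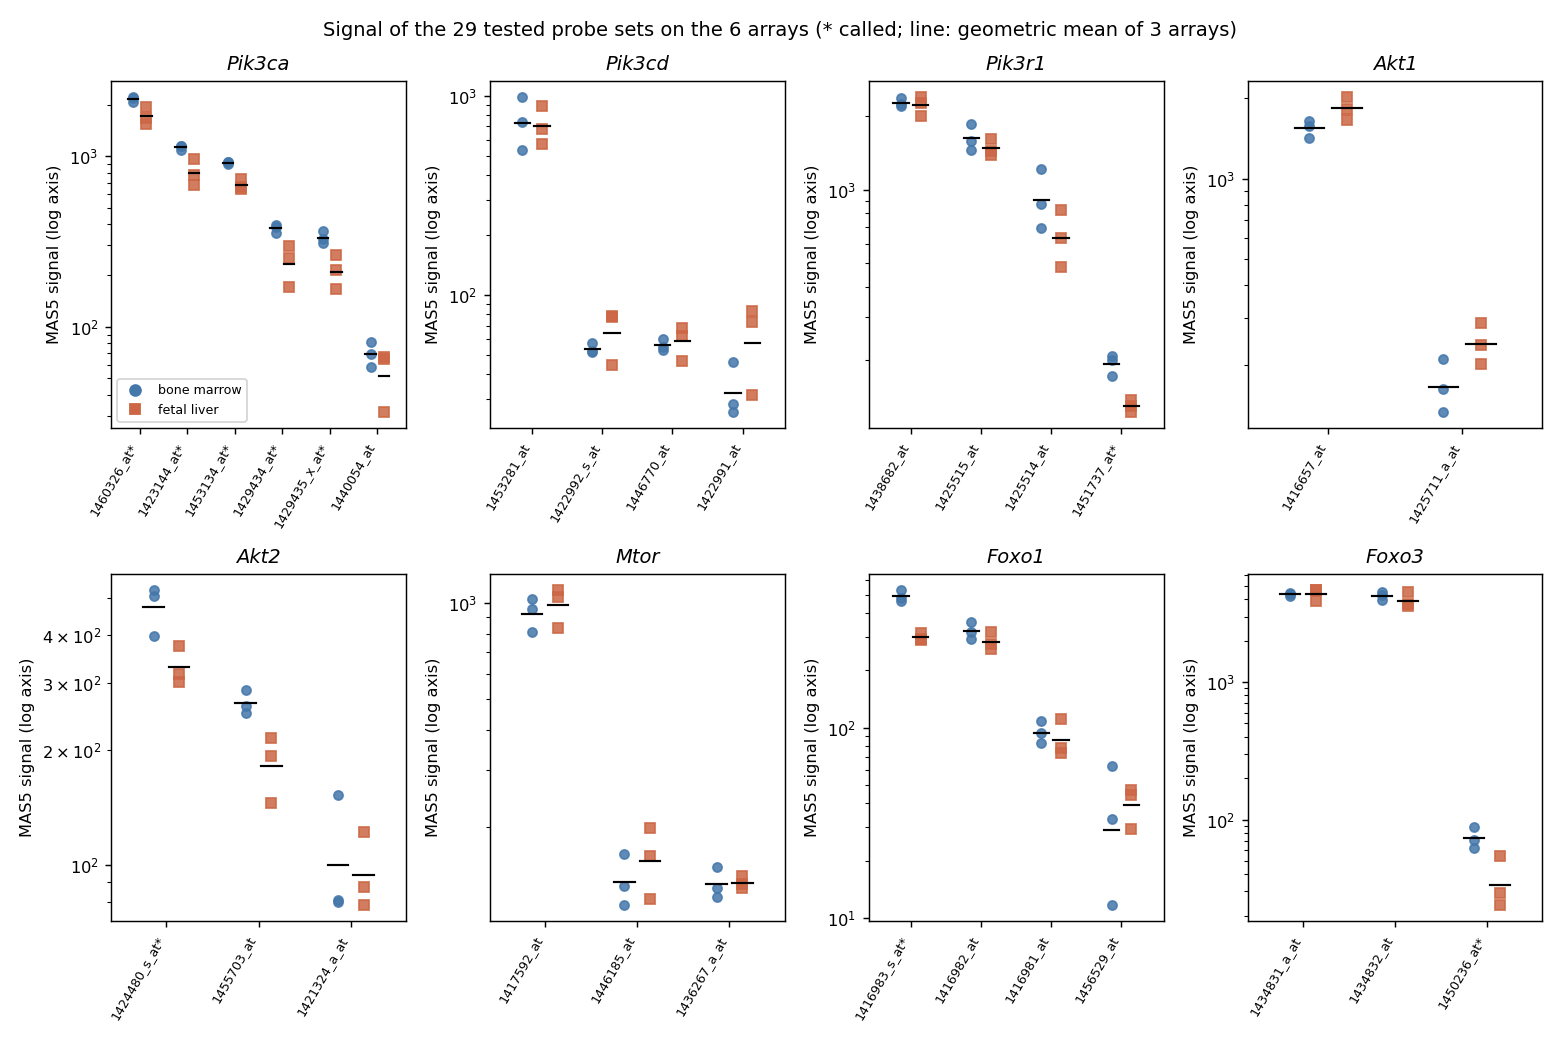
MAS5 signal (log axis) of the 29 tested probe sets, one panel per gene, on the 3 bone marrow arrays (circles) and the 3 fetal liver arrays (squares), with the geometric mean of each group as a line and called probe sets marked by an asterisk. The fetal liver arrays lie below all bone marrow arrays at 5 probe sets of Pik3ca, while the probe sets of Pik3cd and Mtor overlap.

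Pik3cd encodes p110δ, the catalytic subunit concentrated in white blood cells, and did not pass the test at any of its 4 tested probe sets. At the brightest, 1453281_at, signals were 532, 986 and 740 in bone marrow and 887, 575 and 678 in fetal liver. The groups overlapped throughout, and bone marrow replicate 1 was the lowest of all 6 arrays. The log2 fold change was -0.06 with a 95% interval of -0.57 to 0.46, so a difference within that range, in either direction, was not excluded. The other 3 tested probe sets had values of 0.07 to 0.84, with mean signals between 33.3 and 66.7. The highest of these, 1422991_at, had signals of 46.1, 28.2 and 25.7 in bone marrow and 73.4, 31.3 and 82.6 in fetal liver (adjusted p = 0.179), and it was called higher in 4 of 14 alternatives. These were quantile normalization (1.14, adjusted p = 0.0479), median centring (1.17, 0.0301), array weights (1.29, 0.0117) and leaving out fetal liver replicate 2 (1.27, 0.0384). The remaining pair, 1443798_at and 1458321_at, lay below the control level of 10.6 on all 6 arrays and was not tested. The control level is the 95th percentile of 27 control probe sets for bacterial genes.

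Pik3r1 encodes p85α and its shorter forms, the regulatory subunits that hold and stabilise p110. Its brightest probe set, 1438682_at, had signals of 2189, 2244 and 2372 in bone marrow and 2269, 2395 and 2004 in fetal liver. The groups overlapped, with a log2 fold change of -0.03 ± 0.10 (95% interval -0.25 to 0.19). At 1451737_at, a dimmer probe set, the signals were 209, 173 and 200 in bone marrow and 130, 122 and 138 in fetal liver. That was a log2 fold change of -0.57 ± 0.18 (adjusted p = 0.0444), with all fetal liver arrays below all bone marrow arrays. The call was lost without any single array, with adjusted p from 0.0550 without bone marrow replicate 2 to 0.145 without bone marrow replicate 3. The other probe sets, 1425514_at and 1425515_at, were at -0.51 and -0.14 and were not called, although 1425514_at passed without fetal liver replicate 1 (-0.71, adjusted p = 0.0424). The difference of 1451737_at from the brightest was -0.54 ± 0.20 (95% interval -1.01 to -0.07), which did not pass over all 10785 such pairs (adjusted p = 0.272). Of those pairs 1.22% were called.

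Among the other class I subunits 2 were higher and 1 lower. Pik3cb, which encodes the p110β subunit important in platelets, was higher in fetal liver. Its signals were 760, 724 and 706 in bone marrow and 1143, 1248 and 1446 in fetal liver, with all fetal liver arrays above all bone marrow arrays (log2 fold change 0.80 ± 0.12, adjusted p = 0.00109). Pik3r3, a p55 regulatory subunit of low signal, was also higher (1.61 ± 0.49, adjusted p = 0.0348), and Pik3r5, the p101 partner of p110γ, lower (-1.59 ± 0.36, adjusted p = 0.00963). The mean bone marrow signal of Pik3r3, 21.7, lay below the filter level of 22.9, so it was tested only through its fetal liver signal. A higher value was thus largely set by the filter, and its place among the 2 higher genes carries that limit. The Pik3r3 call was lost without bone marrow replicate 2 or 3 or fetal liver replicate 2 or 3 (adjusted p = 0.0662 to 0.139). It was also lost with no filter (adjusted p = 0.0601). Of 9 class I genes tested, the 3 members included, 2 were higher and 2 lower, with a median of -0.06 that turned to 0.28 under median centring and 0.02 after quantile normalization. Over all 11645 named genes at their brightest probe set, 15.9% were called higher and 17.3% lower, with a median of 0.04. These shares are the background for every list below. Outside class I, Pik3c2a, a class II kinase, rose from 246 ± 56.0 to 592 ± 37.3 (log2 fold change 1.29 ± 0.19), 1 of 3 tested genes of class II and III, although its other tested probe set did not share the call.

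**Figure D3:**
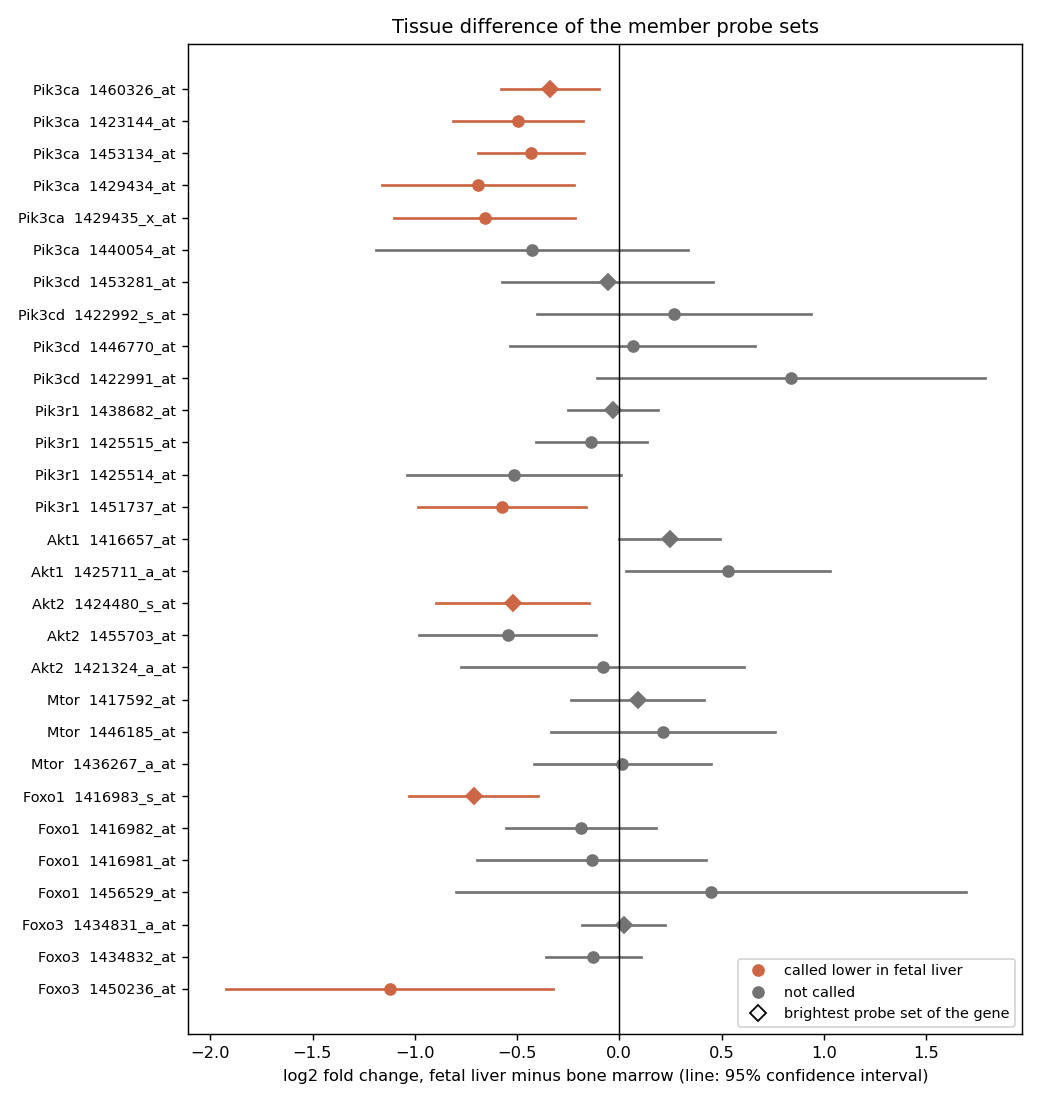
Difference in log2 signal, fetal liver minus bone marrow, with its 95% confidence interval for each of the 29 tested probe sets; diamonds mark the brightest probe set of a gene and orange the 9 called lower. The intervals of Pik3ca lie to the left of 0 for 5 of 6 probe sets, and for Foxo1 and Foxo3 only 1 probe set each was called.

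Among genes that act upstream of PI3K or against it, a brake was called with the smallest adjusted p. Pik3ip1, a membrane protein that inhibits p110, went from 1013 ± 79.6 in bone marrow down to 213 ± 46.5 in fetal liver (a log2 change of -2.27 ± 0.18, adjusted p = 1.76e-05), and its other tested probe set was called the same way. Of 5 tested phosphatases and brakes 1 rose and 2 fell (median -0.30, but 0.04 under median centring, with 2 higher and 1 lower). Inpp4a, a phosphoinositide 4-phosphatase, rose from 2624 ± 20.1 to 3632 ± 351, and Inpp4b, its relative, fell by 0.98 on the log2 scale (adjusted p = 0.0398). That Inpp4b call was lost without bone marrow replicate 1 or any fetal liver array, with adjusted p up to 0.117 over all alternatives. Of 9 receptors and adaptors 2 were higher and 1 lower (median 0.12), and under median centring 6 higher and 0 lower. Igf1r, the IGF1 receptor gene, rose from 2765 ± 168 to 3647 ± 152 and Epor, the erythropoietin receptor gene, by 0.59, while Kit fell by 0.62. A further probe set of Kit was not called, and 1 of 4 further ones of Igf1r was. Leaving out single arrays ended the calls of Epor (without bone marrow replicate 1 or any fetal liver array) and Kit (without bone marrow replicate 2 or 3 or fetal liver replicate 3), with adjusted p up to 0.0781 and 0.151 over all alternatives. Kit is the receptor on which the cells were sorted.

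The kinase genes Akt1 and Akt2 pointed in opposite directions, and only Akt2 was called. Under median centring Akt1 was called higher (0.58) and Akt2 was not called. Akt1, the broadly expressed form, had signals at 1416657_at of 1577, 1428 and 1642 in bone marrow and 1666, 2029 and 1828 in fetal liver. All fetal liver arrays lay above all bone marrow arrays, but the log2 fold change of 0.25 ± 0.11 did not pass (adjusted p = 0.130). At 1425711_a_at the value was 0.53 ± 0.22 (adjusted p = 0.109), and the groups overlapped, at 133 to 211 in bone marrow and 203 to 289 in fetal liver. Without bone marrow replicate 1 that probe set passed, at 0.70 (adjusted p = 0.0499). With the mean of both tested probe sets Akt1 was called higher, at 0.39 (adjusted p = 0.0451). The other pair of Akt1 probe sets did not pass the filter, with single signals of 2.18 to 39.3.

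Akt2, the form best known for insulin signalling, had signals at 1424480_s_at of 527, 509 and 398 in bone marrow and 302, 317 and 376 in fetal liver. The groups did not overlap, and the log2 fold change was -0.52 ± 0.17 (adjusted p = 0.0438), or 1.43-fold lower. The ending s_at in its name marks oligonucleotides shared with other transcripts, so which transcript carries this fall is uncertain. A second probe set, 1455703_at, gave 288, 250 and 261 against 215, 145 and 193, a value of -0.55 ± 0.19 that missed the threshold (adjusted p = 0.0645). The third, 1421324_a_at, was at -0.08 with overlapping groups (95% interval -0.77 to 0.61). The Akt2 call was lost without bone marrow replicate 1 or 2 or without any fetal liver array, with adjusted p from 0.0538 to 0.125. With the mean of its 3 probe sets Akt2 was at -0.38 (adjusted p = 0.136).

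Within an array, a ratio of 2 genes does not change when the array is multiplied by a factor, as in median centring, but can change under quantile normalization. The log2 difference between Akt1 and Akt2 at their brightest probe sets was 1.58, 1.49 and 2.05 in bone marrow against 2.46, 2.68 and 2.28 in fetal liver. The Akt1 to Akt2 ratio was thus 1.70-fold higher in fetal liver, without overlap. The Pik3ca to Pik3cb difference was 1.57 ± 0.10 in bone marrow against 0.43 ± 0.29 in fetal liver, a 2.20-fold lower ratio. The Pik3ca to Pik3r1 ratio was 1.24-fold lower and the Foxo1 to Foxo3 ratio 1.66-fold lower. After quantile normalization these ratios differed by 1.52-fold for Akt1 to Akt2, 2.31-fold for Pik3ca to Pik3cb, 1.23-fold for Pik3ca to Pik3r1 and 1.40-fold for Foxo1 to Foxo3, in the same directions. As deposited the groups separated in all 4 contrasts, which were chosen after the values were seen. Akt1 and Akt2, and likewise Pik3ca and Pik3cb, each separated alone in opposite directions, so their ratios had to separate. How often other pairs of genes separate was not counted. In each of the 4 contrasts the exact two-sided permutation p was 0.1, the smallest that 3 arrays against 3 can give. It was 0.1 after adjustment over the 4, and adds no support to contrasts chosen in this way. A changed ratio shows unequal change and not which gene moved.

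**Figure D4:**
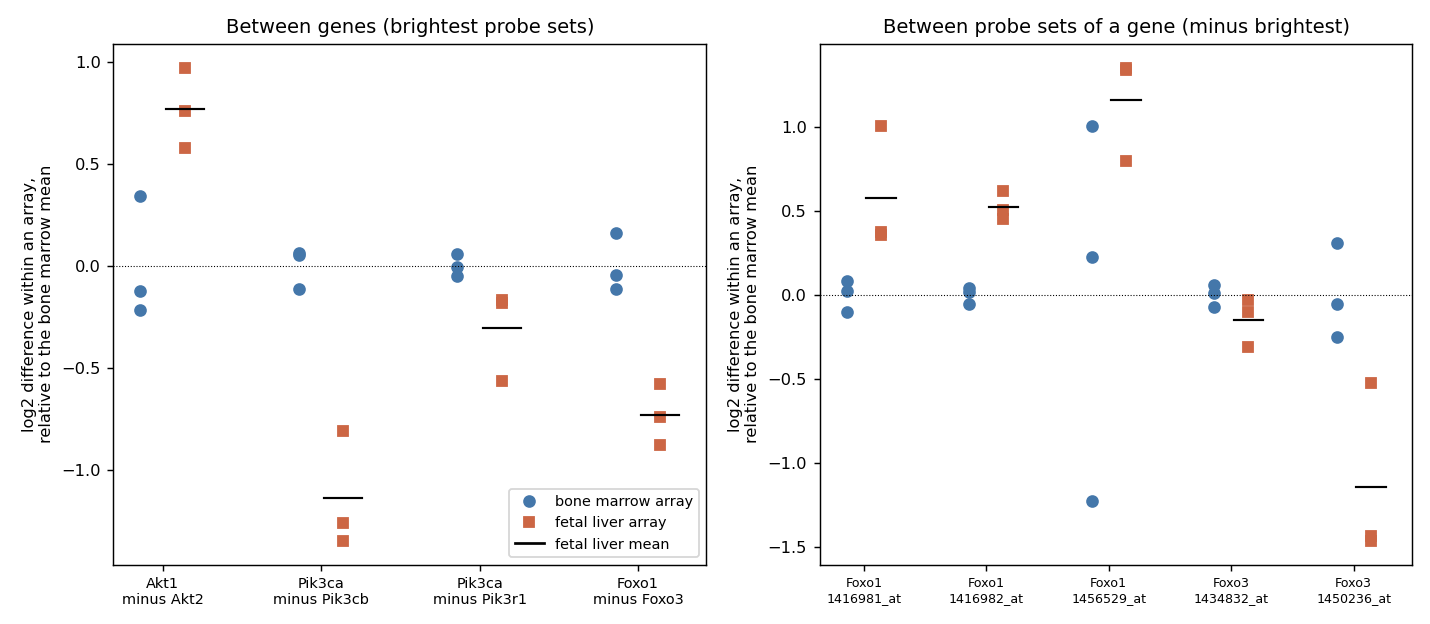
Left, the within-array log2 difference between the brightest probe sets of 2 genes on each array, relative to the bone marrow mean of that difference; right, the same between each dimmer probe set of Foxo1 or Foxo3 and the brightest probe set of its gene. Circles are bone marrow arrays, squares fetal liver arrays and lines the fetal liver means. All 4 gene contrasts, chosen after the values were seen, separate the tissues.

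Sgk1 and Sgk3, related kinases that share substrates with AKT, FOXO factors included, were both lower in fetal liver. Sgk1 went from 2139 ± 326 in bone marrow down to 410 ± 226 in fetal liver (a log2 change of -2.52 ± 0.33, adjusted p = 4.43e-04). Sgk3 had signals of 1975, 2013 and 1725 in bone marrow and 566, 412 and 548 in fetal liver (-1.92 ± 0.15, adjusted p = 1.29e-05), and its other tested probe sets were both called lower. With Akt2 they made 3 lower and 0 higher of 7 tested genes in this list (median -0.37), against 2 lower and 2 higher under median centring (median -0.03). Pdpk1, the kinase that activates AKT, was at 0.13 and not called. Of 8 AKT substrates outside FOXO and TSC 1 rose and 1 fell (median -0.09), while median centring gave 4 higher and 0 lower (median 0.25). The cell-cycle inhibitor Cdkn1b fell by 0.49 (adjusted p = 0.0113), and Gsk3b, the glycogen synthase kinase, rose by 0.24 (adjusted p = 0.0467). The Cdkn1b call was lost without bone marrow replicate 3 (adjusted p = 0.0650), and the Gsk3b call without any 1 of the 6 arrays (0.0517 to 0.171). The Gsk3b call was also lost with no filter (adjusted p = 0.0841) and after quantile normalization (0.133). Of 5 further tested probe sets of Gsk3b 1 shared the call.

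Mtor, the kinase at the core of both mTOR complexes, did not pass at any of its 3 probe sets. At 1417592_at the signals were 810, 1023 and 953 in bone marrow and 831, 1096 and 1045 in fetal liver, with groups that overlapped almost fully. The log2 fold change was 0.09 ± 0.15, with a 95% interval of -0.23 to 0.41. The dimmer 1446185_at and 1436267_a_at were at 0.21 and 0.02, also with overlap.

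Of 10 other tested subunits and assembly factors of the mTOR complexes 4 were higher, 1 was lower and 5 were not called (median 0.27). Rptor, the scaffold of mTOR complex 1, went from 343 ± 49.6 in bone marrow up to 495 ± 55.1 in fetal liver (a log2 change of 0.53 ± 0.16, adjusted p = 0.0367), but 2 other tested probe sets did not share the call. Rictor, the scaffold of complex 2, was at -0.33 and not called (adjusted p = 0.316), while 1 of its 4 further probe sets was called lower. Prr5 and Prr5l, related partners of complex 2, were higher by 0.93 and 2.35. Prr5l went from 48.7, 53.8 and 74.3 in bone marrow to 165, 313 and 501 in fetal liver (adjusted p = 0.00125), a wide spread in the fetal group. Deptor, an inhibitor bound to mTOR, was at 1208 ± 156 in bone marrow against 587 ± 197 in fetal liver (-1.08 ± 0.21, adjusted p = 0.00444) and was lower at all 4 of its tested probe sets. Tti1, an assembly factor, rose by 0.67. Rptor and Prr5 were named after their values were seen. The Rptor call was lost without bone marrow replicate 1 or 3 or fetal liver replicate 1 or 2 (adjusted p = 0.0792 to 0.119), and the Prr5 call without bone marrow replicate 3 or any fetal liver array (0.0535 to 0.115).

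Genes that feed stress and nutrient signals into mTOR complex 1 split evenly, with 4 higher and 4 lower of 26 (median 0.14), and 13 higher and 4 lower under median centring. The 4 higher calls, named after their values were seen, were Depdc5 (0.74, adjusted p = 0.0160), Tbc1d7 (0.57, 0.0454), Wdr24 (0.59, 0.0402) and Sec13 (0.35, 0.0234). Depdc5 encodes a subunit of GATOR1 and Tbc1d7 one of the TSC complex, both of which inhibit mTOR complex 1, and Wdr24 and Sec13 encode subunits of GATOR2, which opposes GATOR1. None of the 4 further probe sets of Depdc5 shared its call. All 4 calls were lost without bone marrow replicate 3, fetal liver replicate 2 or fetal liver replicate 3, and that of Sec13 also without bone marrow replicate 2 and those of Tbc1d7 and Wdr24 without bone marrow replicate 1 or 2 (adjusted p = 0.0513 to 0.158). Ddit4, a stress-induced inhibitor acting through TSC, had signals of 5037, 4316 and 4616 in bone marrow and 1158, 717 and 1071 in fetal liver (-2.27 ± 0.17, adjusted p = 1.03e-05). Sesn3, a sestrin induced by FOXO factors, was at 543 ± 51.2 in bone marrow against 81.7 ± 26.9 in fetal liver (-2.78 ± 0.24, adjusted p = 2.72e-05). Lamtor4, a subunit of the lysosomal anchor, fell by 0.92. Downstream of mTOR complex 1, 0 of 15 genes were higher and 5 lower (median -0.07), a balance that turned under median centring to 5 higher and 2 lower (median 0.27). As deposited, 15.9% of all named genes were called higher and 17.3% lower. Lpin1, a phosphatidate phosphatase, fell from 735 ± 96.6 to 284 ± 63.3. Tfeb, a lysosome-gene regulator, fell by 1.82 (adjusted p = 0.0108) and Ulk2, an autophagy kinase, fell by 0.66 (adjusted p = 0.00372, and 0.0656 under median centring).

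Foxo1 was lower in fetal liver at 1 of its 4 probe sets, and the others did not share the call. At 1416983_s_at, the brightest, the signals were 529, 462 and 478 in bone marrow and 315, 287 and 294 in fetal liver. The groups were well apart and tight, with a log2 fold change of -0.71 ± 0.14 (adjusted p = 0.00484), or 1.64-fold lower. This call held without each array in turn (adjusted p = 0.00677 to 0.0228) and under quantile normalization (0.0166), and was lost under median centring (-0.37, adjusted p = 0.0542). At 1416982_at the signals were 358, 292 and 317 in bone marrow and 318, 258 and 274 in fetal liver. These groups overlapped, with a value of -0.19 ± 0.16 (adjusted p = 0.439). The dimmer 1416981_at and 1456529_at were at -0.13 and 0.45, neither called. With the mean of the 4 probe sets Foxo1 was at -0.15 (adjusted p = 0.643).

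The tissue difference depended on which Foxo1 probe set was read, although the test of that disagreement missed its threshold. Relative to 1416983_s_at, the log2 signal of 1416982_at was -0.57, -0.66 and -0.59 in bone marrow against 0.01, -0.16 and -0.10 in fetal liver. The tissue difference of these 2 probe sets differed by 0.52 ± 0.10 (95% interval 0.29 to 0.76, adjusted p = 0.0573), with no overlap between tissues. It passed with the stricter filter, quantile normalization, the offset or array weights (lowest adjusted p = 0.0154), and reached 0.209 under the others. Both are annotated with the same sequence record, as are 3 of the 4 probe sets, but which transcript end each measures was not worked out here. A probe set name ending in s_at marks oligonucleotides shared with other transcripts, so which transcript carries the fall is uncertain.

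Foxo3, the FOXO factor best known in blood stem cell maintenance, was not called at its 2 bright probe sets as deposited. At 1434831_a_at the signals were 4218, 4444 and 4393 in bone marrow and 4690, 4698 and 3913 in fetal liver, with overlap. The log2 fold change was 0.02 ± 0.09 with a 95% interval of -0.18 to 0.22. Under median centring this probe set was called higher, at 0.36 (adjusted p = 0.0466). At 1434832_at the value was -0.13 ± 0.10 (adjusted p = 0.413). The third probe set, 1450236_at, had signals of 87.5, 62.3 and 70.6 in bone marrow and 54.4, 28.97 and 23.7 in fetal liver. It was called lower at -1.12 ± 0.36 (adjusted p = 0.0429), the largest called difference among the 29. It was also among the dimmest, and the call was lost without bone marrow replicate 1, 2 or 3 or fetal liver replicate 2 or 3 (adjusted p = 0.0708 to 0.140). Its difference from the brightest probe set was -1.14 ± 0.35 (95% interval -1.97 to -0.32, adjusted p = 0.197). Foxo4, the third FOXO gene tested, was at -0.18 and not called.

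Genes known as FOXO targets were lower in fetal liver in 13 of 26 tested cases and higher in 1, with a median log2 fold change of -0.49. Over all 11645 named genes 17.3% were called lower and 15.9% higher, with a median of 0.04. The 26 are those of 31 listed genes that were found and passed the filter. Bcl2l11, which encodes the cell-death protein BIM, had signals of 1167, 1357 and 1595 in bone marrow and 400, 393 and 380 in fetal liver (-1.80 ± 0.14, adjusted p = 1.47e-05). Bcl6, a transcriptional repressor, went from 770 ± 264 in bone marrow down to 44.6 ± 5.59 in fetal liver (-4.05 ± 0.28, adjusted p = 7.33e-06), with bone marrow replicate 1 at 465 and the others at 935 and 909. Pik3ip1 and Sesn3, described above, belong to this list too. Outside the naming rule, and named after their values were seen, Klf2, a quiescence-linked transcription factor, fell by 3.56 and Tnfsf10, the death ligand TRAIL, fell by 3.17. The cell-cycle inhibitor Cdkn1a fell by 1.63 and the death gene Bbc3 fell by 1.93. The Cdkn1a call was lost without bone marrow replicate 1 or 3 or fetal liver replicate 2 (adjusted p = 0.0599 to 0.0734). The 1 gene that rose was Bnip3, a mitophagy gene also induced by low oxygen, from 285 ± 42.4 in bone marrow up to 939 ± 122 in fetal liver (1.72 ± 0.16, adjusted p = 5.67e-05). The antioxidant genes Cat and Sod2 were at -0.13 and -0.22 and were not called. Quantile normalization gave 15 lower and 1 higher, and median centring 10 lower and 5 higher. Many of these genes answer to other regulators as well, Klf2 and Cdkn1a to early stress signals and Tnfsf10 to interferon, so the list is not a measure of FOXO activity.

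**Figure D5:**
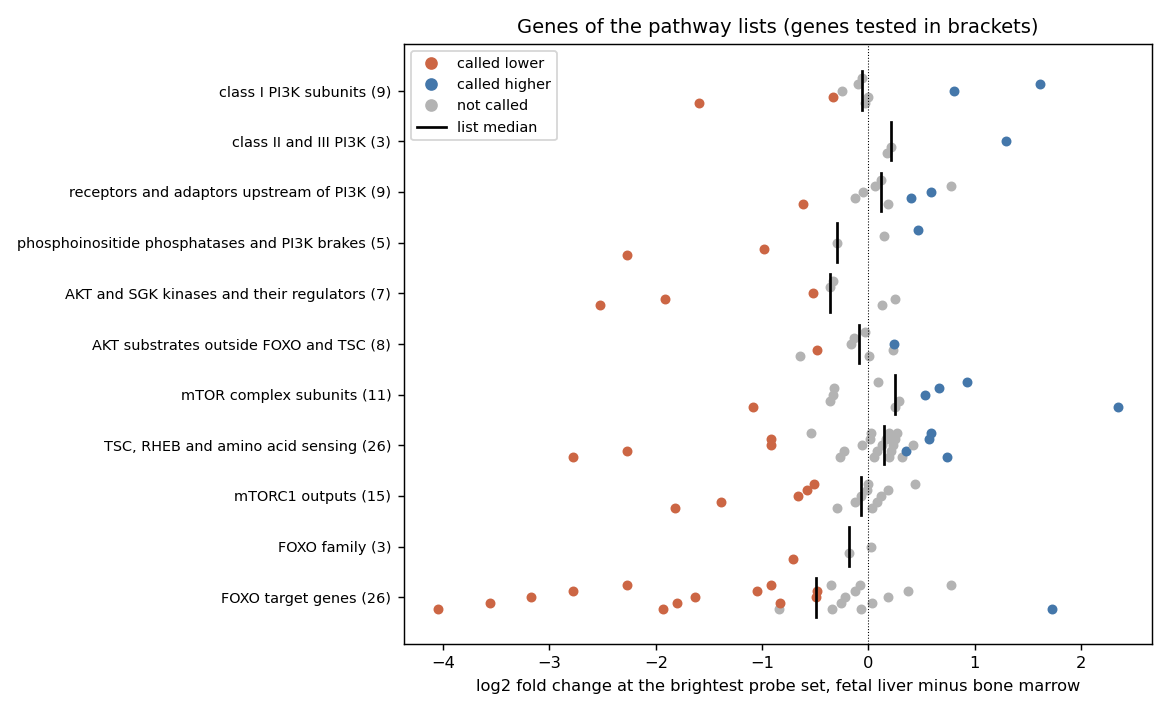
Difference in log2 signal, fetal liver minus bone marrow, at the brightest probe set of each tested gene in the 11 pathway lists, members included; orange is called lower, blue called higher, grey not called, and the black line is the list median. The FOXO target list has the lowest median, -0.49, with 13 genes called lower and 1 higher.

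Markers of other blood lineages moved with the tissues on the same arrays, and their part in these results was not tested. Over all 11645 named genes 17.3% were called lower and 15.9% higher. Of 14 markers of granulocytes and monocytes 12 were tested and all of these were lower, with a summed signal of 55080 to 68614 in bone marrow against 7284 to 9103 in fetal liver, where Mmp8 was below the control level. Of 14 lymphoid markers 7 were tested and 5 lower, with sums of 3270 to 4926 against 1455 to 1603, and Cd3e, Cd3g, Cd79a, Pax5 and Rag1 were below the control level in fetal liver, Pax5 also in bone marrow. All 5 tested of 8 mast cell and basophil markers were lower (3982 to 5183 against 257 to 353; Fcer1a, Mcpt4, Mcpt8 and Ms4a2 below the control level in fetal liver, Mcpt4 also in bone marrow), as were 6 tested of 9 macrophage markers (2545 to 3017 against 332 to 438; C1qa, C1qc, Cd163 and Vcam1 below it). The filter used the mean log2 signal over both tissues, so a marker near the floor in fetal liver was tested only where bone marrow was high. For such markers a lower value was largely set by the filter. Of 8 stem and early progenitor markers 6 were lower. Of 11 erythroid markers 8 were tested, 1 higher and 3 lower (12471 to 23275 against 9218 to 11142), and of 7 endothelial markers 5 were tested and 3 higher (2902 to 3351 against 4305 to 5484). Of 6 hepatoblast markers 2 were tested and 1 was lower. The megakaryocyte markers of the sorted cell type were all above the control level in both tissues, with 10 of 12 tested, 2 higher and 1 lower. Their sums were 26333 to 31130 in bone marrow, and the fetal liver sums lay on both sides of that range. Fetal liver replicate 1 was below it, at 20309, and replicates 2 and 3 were above it, at 36339 and 34203.

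Over all lists, 108 pathway genes that are not members were tested, with 16 higher and 26 lower and a median of -0.06. That is 38.9% called, where 33.2% of all named genes were called at their brightest probe set. Of the 8 members 3, Pik3ca, Akt2 and Foxo1, were called there. The balance of directions is not settled, since median centring gave 46 higher and 18 lower among the 116 pathway genes, members included, against 16 higher and 29 lower as deposited.

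The genes whose pattern over the 6 arrays was most like that of the 3 called members were found among the brightest probe sets of all named genes, by Pearson's r of log2 signal. For Pik3ca they were Lamp2, a lysosomal membrane protein gene (r = 0.999), Jak2, the kinase of the thrombopoietin receptor (0.997), and Ago4, an Argonaute gene (0.995). For Foxo1 they were Ece1, the endothelin-converting enzyme gene (0.999), Tmem245 (0.998) and Bex6 (0.997). For Akt2 they were Tmie (0.994), Aldh1l1, a folate enzyme gene (0.990), and Zup1 (0.989). With 6 arrays that share 1 tissue contrast such values are common: 710 genes exceeded 0.95 for Foxo1, 358 for Pik3ca and 46 for Akt2.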

How the data were processed

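RNA of 6 sorted samples was hybridised to Affymetrix mouse arrays. Each array's file holds the authors' linear intensity for every probe set. The submitters' processing notes name MAS5 and no version. MAS5 values are noisy at low intensity, and the number of arrays limits precision. How many mice each sample pooled is unknown, so p-values describe only variation among these samples.

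Of 45101 probe sets 64 were controls. Symbols came from the platform annotation and were checked by Entrez identifier against RefSeq genes of GRCm38.p6 (34741 matched, 0 changed). Probe sets with several symbols, 932 in all and 1 of them listing a member, were not used. Signals were log2-transformed with no offset, and the 27022 probe sets above the 40th percentile of mean log2 signal (22.9) were tested. limma 3.58.1 (R 4.3.3) fitted tissue alone, with a trended prior and Benjamini-Hochberg adjustment over all of them; a second fit used the within-array difference between each probe set and the brightest of its gene. A gene was read at its brightest probe set. Tables and figures used Python 3.11.15, pandas 2.3.3 and matplotlib 3.10.9. The fits were also run on simulated data with larger changes than most members showed. Power at the size of the member differences was not measured.

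The members, the pathway and marker lists (208 of 226 entries found, the others not analysed here) and the alternatives were chosen with earlier results of these data known. Named genes were all members, the called non-members of each pathway list ranked by adjusted p (up to 3), and the 3 genes most like each called member. Pdpk1, Rictor, Foxo4, Cat and Sod2, which were not called, and the genes said to be named after their values were seen fall outside this rule. Same-numbered replicates did not vary together (r = 0.0013, 0.11 and -0.16), so the numbers were not used as pairs. No 2 arrays were identical, and no value column was left without a sample.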

Additional observations from a re-analysis of the deposited data

How the results depend on the processing

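Every count was recomputed under 15 alternatives, and those over genes under 17, with the FOXO target count and the checks of genes named outside the rule added after the data were seen. The 9 member calls became 5 with no filter, 3 with no variance trend and 4, all higher, with median centring, and 1 to 9 when single arrays were left out. The 3 called member genes became 1 with no filter, no variance trend or the replicate block, and 1 to 2 without single arrays; Foxo1 kept its call under all of these. The replicate block, whose numbers share nothing but a label, called 7 member probe sets, of which Pik3r1 1425514_at was gained (adjusted p = 0.0197), and ended the calls of the brightest Pik3ca probe set (adjusted p = 0.0622), Akt2 (0.0753) and Pik3r1 1451737_at (0.0673). Over all probe sets the 7237 calls became 12515 with median centring, of which 78.7% were higher against 44.1% as deposited and 55.7% after quantile normalization, 11021 with array weights, and 4610 to 7761 without single arrays. The 132 pairs of probe sets that disagreed became 9 with no filter, 234 with an offset of 7.54 added to every signal, 667 with array weights, 69 with the replicate block and 39 to 100 without single arrays. Pathway genes called stayed within 1.5 times of 45 in number, at 30 to 44 without single arrays, and FOXO targets of 14, at 11 to 16. Among the members and the named pathway genes, no called value changed sign under any alternative run for it. Signs were not followed for the other probe sets. With 3 arrays a side the median SE of the tested members was 0.19 on the log2 scale, which limits what could be detected, and leaving out an array lowers the number in the fit further.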
